A study of Ovis aries with 3 samples.

Results

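The colon was compared with the cecum, the other segment of the large intestine sampled in these sheep, through the mature miRNA counts of 1 colon (CO) library and 1 cecum (CE) library. Members were all entries with 10 or more reads in both libraries, which left 278 of 822 entries. They comprised 101 of 146 known sheep miRNAs, whose names begin with oar-, and 177 of 676 predicted miRNAs, whose names begin with novel_mir. Both libraries came from 3 ewes of the Small tailed Han breed, 11 months old and untreated as far as the labels say. For each segment, total RNA of the ewes was pooled before 1 library was made, so the libraries share animals and no value has a replicate. The tissue is labelled intestinal mucosal epithelial tissue, and the colon was sampled at its proximal part. The duodenum (DU) library of the same ewes is given here only beside members that it helps to place.

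MicroRNAs (miRNAs) guide Argonaute proteins to messenger RNAs, mainly by pairing of the seed, which is bases 2 to 8 of the mature miRNA. miRNAs with the same seed can share targets, and miRNAs of a cluster are cut from one primary transcript. In the gut wall, the miR-200 family and the miR-192, miR-194 and miR-215 group mark the epithelium, miR-143 and miR-145 mark smooth muscle, and miR-17 and its relatives are linked to cell proliferation. The cecum and the proximal colon of sheep are both hindgut segments in which microbes ferment plant material.

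The sequences below are those on which the comparison of both segments turned, as the deposited files list them, with the seed in capitals. Predicted entries were given a name where their sequence was identical to, contained or lay within a named mature miRNA of the mature sequence table of the study. The first set is shown because it holds the members that differed most between both segments and their relatives. miR-215 and miR-192 share a seed and differ at 2 of 21 bases. The miR-194 and miR-200b pairs and the miR-429 pair share their 5′ end and differ in length only.
novel_mir_174 (miR-215): aTGACCTAtgaattgacagaca
novel_mir_245 (miR-192): cTGACCTAtgaattgacagcc
oar-miR-194: tGTAACAGcaactccatgtgga
novel_mir_175 (miR-194, longer form): tGTAACAGcaactccatgtggac
oar-miR-200b: tAATACTGcctggtaatgatg
novel_mir_179 (miR-200b, longer form): tAATACTGcctggtaatgatgac
oar-miR-200c: tAATACTGccgggtaatgatgg
novel_mir_178 (miR-429): tAATACTGtctggtaatgccg
novel_mir_357 (miR-429, longer form): tAATACTGtctggtaatgccgt
novel_mir_95 (miR-141): tAACACTGtctggtaaagatg
oar-miR-200a: aACACTGTctggtaacgat

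The second set is shown because its members have the same seed and related sequences, and yet did not move together. oar-miR-106a differs from oar-miR-17-5p at 1 of 21 bases, and the miR-20b entry differs from oar-miR-17-5p at 1 of 22 bases.
oar-miR-17-5p: cAAAGTGCttacagtgcaggta
novel_mir_148 (miR-20a): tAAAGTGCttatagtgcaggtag
novel_mir_256 (miR-93): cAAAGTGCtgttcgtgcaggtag
oar-miR-106b: tAAAGTGCtgacagtgcagat
oar-miR-106a: aAAAGTGCttacagtgcaggt
novel_mir_282 (miR-20b): cAAAGTGCtcacagtgcaggtag

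The third set holds the muscle miRNAs that lay farthest from equal levels, and the Hox cluster miRNA and the unnamed entries with the widest gaps.
oar-miR-133: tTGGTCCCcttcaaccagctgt
novel_mir_235 (miR-206): tGGAATGTaaggaagtgtgtgg
novel_mir_182 (miR-499): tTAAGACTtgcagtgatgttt
novel_mir_100 (miR-490): cAACCTGGaggactccatgctg
novel_mir_92 (miR-196a): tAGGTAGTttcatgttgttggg
novel_mir_377 (no name): tCGAGCCTgacagatcacacac
novel_mir_173 (no name): aAAAAACCgagtgaactttttg
novel_mir_5 (no name): tGAACTGTcttactcccacatct

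In all, 15072945 reads were counted in cecum and 13769740 in colon. Known sheep miRNAs took 88.3% and 90.4% of them. Levels are given in RPM, reads per 1000000 reads of known sheep miRNAs, which numbered 13304099 in cecum and 12449011 in colon, so that 1 read equals 0.0752 RPM in CE and 0.0803 RPM in CO. The ratio is the log2 of the CO level over the CE level, positive when the colon is higher, with the exact 95% interval from the binomial split of the reads. This interval covers counting error only and says nothing of the spread between animals, so no p-value is given, and a ratio was called when the levels were at least 2-fold apart. In both libraries oar-miR-143, a miRNA of smooth muscle, had the most reads, with 54.8% of known miRNA reads in CE (Wilson 95% interval 54.8 to 54.9%) and 53.1% in CO (53.1 to 53.2%). Markers of epithelium were thus present in tissue labelled as epithelial, together with abundant miR-143.

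Most miRNAs had similar levels in colon and cecum. Over the 278 entries the median log2 ratio was 0.10, and the middle of the distribution ran from -0.17 (lower quartile) to 0.40 (upper quartile). Of the 278, 156 were higher in colon and 122 higher in cecum. A total of 22 entries (7.91%) were at least 2-fold higher in colon and 7 (2.52%) at least 2-fold higher in cecum, which makes 29 entries (10.4%) in either direction. At 1.5-fold, 45 entries (16.2%) were higher in colon and 21 (7.55%) higher in cecum. Many of these calls rested on few reads, since 14 of the 29 had under 100 reads in both libraries. That share was not counted over all 278 entries. The interval lay wholly beyond 2-fold for 5 of the 22 and 4 of the 7. Of the 29 entries, 2 were known sheep miRNAs, oar-miR-106a and oar-miR-200b, both higher in colon.

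Where both libraries had 1000 or more reads, 93 of 107 entries (86.9%) lay within 1.5-fold. These 107 entries were split evenly, with 54 higher in colon and 53 higher in cecum, and their median log2 ratio was 0.01. Only 4 of them were 2-fold apart, and all 4 belonged to the epithelial list, as the plot of ratio against level shows.

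The epithelial entries with 10 or more reads in both segments were higher in colon, while the entry of miR-192, with 490567 reads in cecum and 0 in colon, went the other way and could not be given a ratio. All 8 of these entries were higher in colon, each with an interval above 0. Of all 278 entries, 156 were higher in colon, and 96 had an interval above 0. At least 2-fold higher in colon were 4 of the 8, against 7.91% of all entries in that direction. The 8 entries include 2 lengths each of miR-194 and miR-200b. With entries of different length added up, the set changed to 8 miRNAs, since miR-429 and miR-31 then reached 10 reads in both libraries. Of these 8 miRNAs, 2, miR-215 and miR-141, were at least 2-fold higher in colon, and miR-31 was lower in colon, at -0.17. With DESeq2 size factors, 3 of the 8 entries were at least 2-fold higher in colon. The median log2 ratio of the 8 entries was 1.02, against 0.10 over all entries. Over the changed set of 8 miRNAs, with lengths added up, it was 0.69. Their levels added up to 66812 RPM in CO and 37547 RPM in CE. With the miR-192 entry included, the CE sum was 74421 RPM and exceeded the CO sum, so the direction of the summed level rested on how the 0 of miR-192 in colon is taken. In such bulk tissue, more epithelial cells and more of these miRNAs per cell cannot be told apart. The other 8 epithelial entries did not reach 10 reads in both libraries and are described below.

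Among entries read in both libraries, the widest gap was that of miR-215, a miRNA of the intestinal epithelium whose transcript also yields miR-194 in mammals. Its entry had 7390 reads (555 RPM) in cecum and 80024 reads (6428 RPM) in colon. The colon level was 11.6-fold higher, a log2 ratio of 3.53 (3.50 to 3.57). This value is uncertain where reads could have been split with miR-192, which shares its seed and differs at 2 of 21 bases. Added up, with miR-192 at its listed 0 in colon, both entries had 37429 RPM in cecum and 6428 RPM in colon, the opposite direction. The colon level in turn lay far under the 84467 RPM of the DU library, so the cecum had the lowest miR-215 level of the 3 segments.

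miR-194, which is transcribed with miR-192 or miR-215, had entries of 22 and 23 nt. The 22-nt oar-miR-194 had 73223 reads (5504 RPM) in CE and 100577 reads (8079 RPM) in CO, a log2 ratio of 0.55 (0.54 to 0.57). The 23-nt entry, which carries one further base at its 3′ end, had 1297 reads (97.5 RPM) in CE and 10208 reads (820.0 RPM) in CO, a log2 ratio of 3.07 (2.99 to 3.16). The longer entry thus differed between both segments nearly as much as miR-215, and the shorter one much less. The 23-nt entry held 1.74% of miR-194 reads in CE, 9.21% in CO, and 49.0% in DU. Over both entries added up, miR-194 was higher in colon by a log2 ratio of 0.67 (0.65 to 0.68), under 2-fold. How reads that match both entries were divided is not given in the sources used here.

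The miR-200 family, which keeps the epithelial state by repressing ZEB1 and ZEB2, was higher in colon in each of its 5 entries. oar-miR-200b had 5618 RPM in CE and 11758 RPM in CO, a log2 ratio of 1.07 (1.05 to 1.08), and oar-miR-200a had 6547 and 12849 RPM, a log2 ratio of 0.97 (0.96 to 0.98). RefSeq lists MIR200A and MIR200B as neighbouring genes in the sheep assembly ARS-UI_Ramb_v3.0. The oar-miR-200a and oar-miR-200b ratios were close, but both lengths of miR-200b added up gave a lower ratio, 0.71. The miR-141 entry had 1060 reads (79.7 RPM) in CE and 2129 reads (171 RPM) in CO, a log2 ratio of 1.10 (0.99 to 1.21).

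The remaining miR-200 entries differed less. oar-miR-200c had 8426 RPM in CE and 11826 RPM in CO, a log2 ratio of 0.49 (0.48 to 0.50). The 23-nt miR-200b entry had 10720 RPM in CE and 14881 RPM in CO, a log2 ratio of 0.47 (0.46 to 0.48). The share of miR-200b reads in this longer entry was 65.6% in CE and 55.9% in CO, so here the longer form took the smaller share in colon, opposite to miR-194. Both miR-200b entries added up gave a log2 ratio of 0.71 (0.70 to 0.71). oar-miR-200b and oar-miR-200c differ at 1 of 21 bases, so some reads could have been split between them.

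miR-429, another miRNA of the family, was listed under another length in each segment. The CE library had 3216 reads of the 22-nt entry and 0 of the 21-nt entry, whereas the CO library had 0 reads of the 22-nt entry and 4268 of the 21-nt entry. Added up, the level was 242 RPM in CE and 343 RPM in CO, a log2 ratio of 0.50 (0.44 to 0.57). A 0 of 1 entry therefore did not mean that the miRNA was absent, as the plot of length forms shows.

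**Figure D1:**
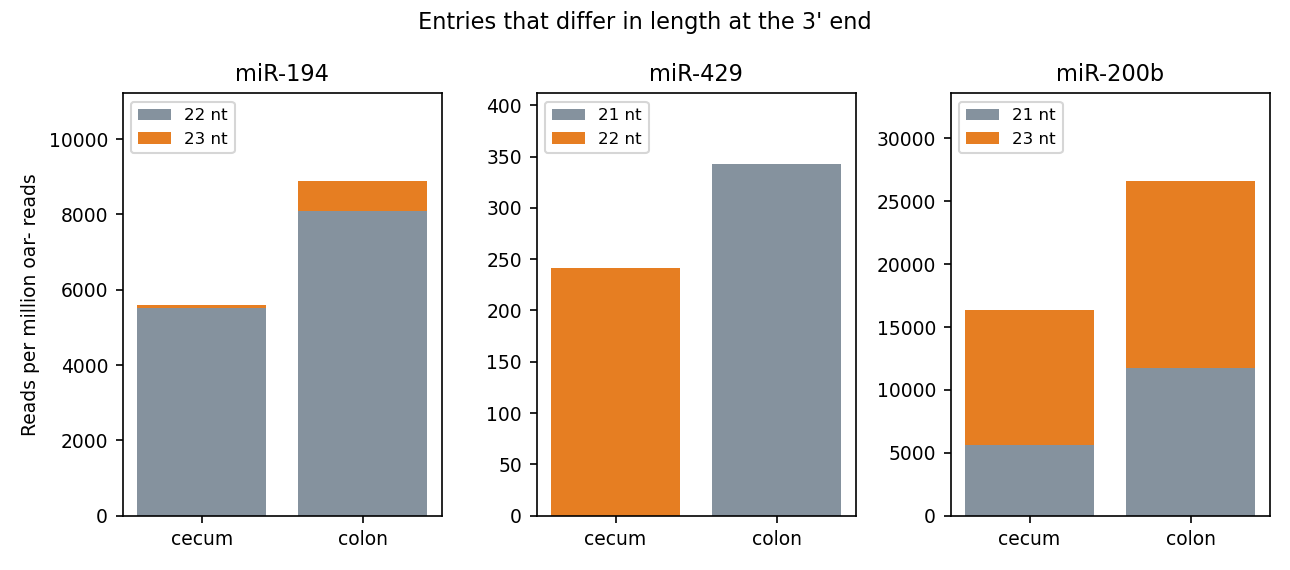
Stacked bars give the level (RPM of known miRNA reads) of the shorter and the longer entry of miR-194, miR-429 and miR-200b in the cecum and colon libraries, 1 pooled library each, with a y axis from 0 in each panel. All 3 summed bars are higher in colon, and each library holds the reads of miR-429 in a single length.

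miR-192 could not be compared. Its entry had 490567 reads (36873 RPM) in CE and 967314 in DU but is listed at 0 in CO, and a 22-nt entry of the same miRNA is at 0 in all 3 libraries. No other entry of the files contained or lay within this sequence and had reads in CO, so no ratio is given. Among the other epithelial entries, those of miR-31 had 12 reads in CE and 10 in CO against 981 in DU, each in another length. The miR-802 entry had 600 reads in DU and 0 in both large-intestinal libraries.

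The muscle miRNAs had no common direction between both segments. All 6 muscle entries had 10 or more reads in both libraries, with 3 higher in colon and 3 higher in cecum. At least 2-fold apart were 0 of the 6, against 10.4% of all entries, and so few entries cannot be told from that share. At 1.5-fold, 1 was higher in colon, against 16.2% of all entries, and 2 were higher in cecum, against 7.55%. Their median log2 ratio was -0.0049, against 0.10 over all entries.

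oar-miR-143, which is cut from the same primary transcript as miR-145 in smooth muscle, had 548486 RPM in CE and 531315 RPM in CO, a log2 ratio of -0.05 (-0.05 to -0.04). The entry of the 3′ arm of miR-145 had 3348 RPM in CE and 3433 RPM in CO, a log2 ratio of 0.04 (0.02 to 0.06). Both members of this smooth muscle transcript thus had nearly equal levels. Reads of oar-miR-143 make up much of the scale itself. Its ratio was -0.10 with oar-miR-143 left out of the scale, and ran from -0.01 (sum of all entries) to -0.14 (DESeq2 size factors). The sign of the miR-145 ratio depended on the scale and was negative under 3 of the 6 other scales, down to -0.06 with DESeq2 size factors.

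Other muscle miRNAs pointed in different directions. oar-miR-133, a miRNA of striated and smooth muscle, had 9086 reads (683 RPM) in CE and 4867 reads (391 RPM) in CO, a log2 ratio of -0.80 (-0.86 to -0.75). The entry of miR-206, a miRNA of skeletal muscle, was also lower in colon, with 511 reads (38.4 RPM) in CE and 298 reads (23.9 RPM) in CO, a log2 ratio of -0.68 (-0.89 to -0.47). Both cecum levels were more than 1.5-fold the colon levels.

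The miR-490 entry, found in smooth muscle of the gut, was higher in colon, with 1196 reads (89.9 RPM) in CE and 1643 reads (132 RPM) in CO, a log2 ratio of 0.55 (0.45 to 0.66). So was the entry of miR-499, which lies in a muscle myosin gene, with 406 reads (30.5 RPM) in CE and 597 reads (48.0 RPM) in CO, a log2 ratio of 0.65 (0.47 to 0.84). The 6 muscle entries therefore ran from -0.80 to 0.65, with the 2 smooth muscle entries of most reads near 0.

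The proliferation miRNAs differed by the cluster they were listed under. Each entry was listed under a single cluster, and its reads were not traced to a gene copy. Of 12 entries with 10 or more reads in both libraries, 7 were higher in colon and 5 higher in cecum, the median log2 ratio was 0.09, and 2 were at least 2-fold higher in colon. That is 2 of 12, against 7.91% of all entries, and both came from the same small cluster.

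The miR-106a to miR-363 cluster, a paralogue of the miR-17 to miR-92 cluster, was higher in colon in all 3 entries. oar-miR-106a had 77 reads (5.79 RPM) in CE and 204 reads (16.4 RPM) in CO, a log2 ratio of 1.501 (1.12 to 1.90). The miR-20b entry had 68 reads (5.11 RPM) in CE and 132 reads (10.6 RPM) in CO, a log2 ratio of 1.05 (0.62 to 1.497). The miR-363 entry had 127 reads (9.55 RPM) in CE and 204 reads (16.4 RPM) in CO, a log2 ratio of 0.78 (0.45 to 1.11). Summed over the cluster, the level was 43.4 RPM in CO and 20.4 RPM in CE, so this gap concerned miRNAs with few reads. The miR-20b ratio was under 2-fold with 3 of the 6 other scales.

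The miR-17 to miR-92 cluster, the best known miRNA cluster of dividing cells, had 6 entries with log2 ratios from -0.12 to 0.12. oar-miR-17-5p had 3003 reads (226 RPM) in CE and 2652 reads (213 RPM) in CO, a log2 ratio of -0.08 (-0.16 to -0.01). The miR-92a entry had 3620 RPM in CE and 3936 RPM in CO, a log2 ratio of 0.12 (0.10 to 0.14). The miR-20a entry had 937 RPM in CE and 861 RPM in CO, a log2 ratio of -0.12 (-0.16 to -0.08). The entries of miR-18a, miR-19a and oar-miR-19b had ratios of 0.05, -0.07 and -0.02 with intervals that contain 0. The levels of this cluster added up to 4893 RPM in CE and 5118 RPM in CO, and no member was 1.5-fold apart.

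The remaining cluster, miR-106b to miR-25, lies in an intron of the replication gene MCM7 in mammals, and RefSeq lists MIR106B and MIR25 as neighbours. Its entries lay just as near to equal levels. oar-miR-25 had 1449 RPM in CE and 1632 RPM in CO, a log2 ratio of 0.17 (0.14 to 0.20), oar-miR-106b had 84.6 and 92.4 RPM, a log2 ratio of 0.13 (0.01 to 0.25), and the miR-93 entry had 277 and 254 RPM, a log2 ratio of -0.13 (-0.20 to -0.06).

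The 6 entries with the seed AAAGTGC came from all 3 clusters and divided into 3 higher in colon and 3 higher in cecum. The scarce miR-106a and miR-20b each differ from miR-17-5p at 1 base. Their reads could have been counted with those of miR-17-5p or the reverse, and their values are uncertain to that extent. The plot of listed ratios sets the lists side by side.

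**Figure D2:**
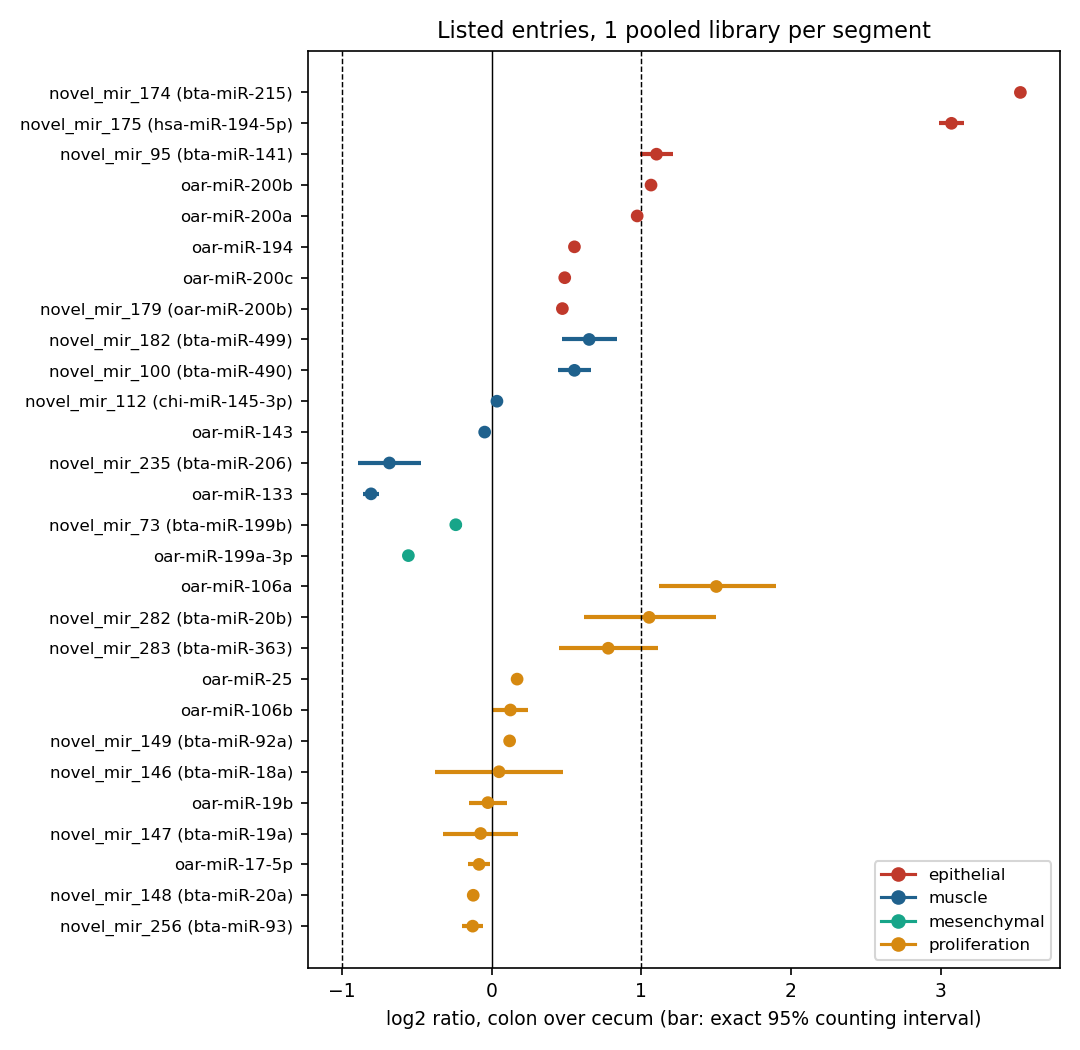
Each point is the log2 ratio of colon over cecum of 1 listed entry, with the exact 95% counting interval as a bar (hidden by the point where narrow), 1 pooled library per segment. The solid line marks equal levels and dashed lines mark 2-fold. All epithelial points lie right of 0, the muscle points lie on both sides, and among the proliferation points the miR-106a to miR-363 cluster stands apart at 0.78 to 1.501.

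The DU library placed these differences along the gut. All 8 epithelial entries had their lowest level in CE on this scale, and 7 of 8 did per clean read or with oar-miR-143 left out of the scale, where oar-miR-200b was lowest in DU. All 8 were already higher in CO than in CE, so this order adds only that their DU level also lay above CE. The summed level of all entries kept was likewise higher in DU than in CE. How many of all entries were lowest in CE was not counted. The miR-192 entry, left out of the 8 by the filter, had 88070 RPM in DU, 36873 in CE and 0 in CO. Added up with miR-215 as listed, it gave 37429 RPM in CE and 6428 RPM in CO. Whether that pair had its low point in cecum thus rests on how the 0 of miR-192 in colon is taken. miR-215 and both miR-194 entries were highest in DU under each of the 5 scales that cover this library. The entries of miR-141, oar-miR-200a and both miR-200b forms were highest in CO under each of them, oar-miR-200b with 6780 RPM in DU, 5618 in CE and 11758 in CO. All 3 entries of the miR-106a to miR-363 cluster were also lowest in CE. This was not particular to the cluster, since on this scale 7 of the 12 proliferation entries were lowest in CE, and 10 of the 12 were highest in DU. The muscle entries had no common order: oar-miR-133 was highest in CE, and the miR-206 entry was highest in DU and lowest in CO. The plot of levels by library shows these orders.

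**Figure D3:**
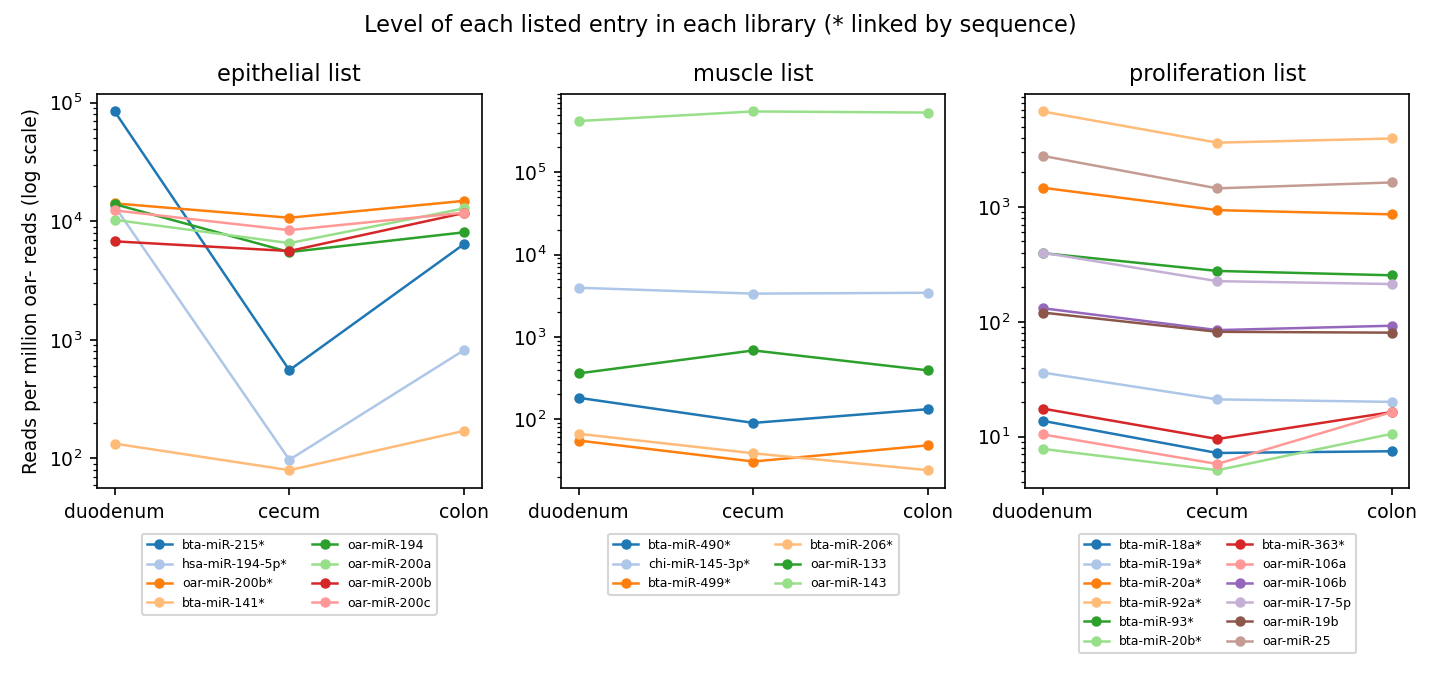
Lines join the levels (RPM of known miRNA reads, log scale) of each listed entry in the duodenum, cecum and colon libraries, 1 pooled library each, for the epithelial, muscle and proliferation lists. An asterisk marks names given by sequence, and hsa-miR-194-5p* and oar-miR-200b* are the 23-nt entries. The epithelial lines drawn have their low point in cecum, that of miR-215 at 555 RPM, while most proliferation lines are nearly level from cecum to colon. The miR-192 entry, listed at 0 in colon, is not drawn.

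miRNAs of other cell types were measured in the same libraries, and their part in the epithelial difference was not tested. Both mesenchymal entries were lower in colon, oar-miR-199a-3p with 3603 RPM in CE and 2452 RPM in CO and a log2 ratio of -0.56 (-0.58 to -0.53), and the miR-199b entry with 842 and 713 RPM and a log2 ratio of -0.24 (-0.28 to -0.20). The summed level of the mesenchymal list was 4445 RPM in CE and 3165 RPM in CO. miR-214, also mesenchymal, had 456 reads in CE and 0 in CO under 1 entry, while an entry shifted against it had 0 reads in CE and 455 in CO.

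Of 5 leukocyte entries, 2 were higher and 3 lower in colon, with summed levels of 2232 RPM in CE and 1965 RPM in CO. The entry of miR-146b, which restrains innate immune signalling, was lower in colon, with 1075 RPM in CE and 647 RPM in CO, a log2 ratio of -0.73 (-0.77 to -0.69). The miR-155 entry, a miRNA of activated lymphocytes and macrophages, was higher, with 412 and 590 RPM and a log2 ratio of 0.52 (0.47 to 0.57), and oar-miR-150, a miRNA of mature lymphocytes, was higher with 190 and 233 RPM and a log2 ratio of 0.29 (0.21 to 0.37). The miR-146a and miR-342 entries had ratios of -0.13 and -0.27, and an entry shifted against miR-142-5p (novel_mir_157), a miRNA of all leukocytes, had 750 and 671 RPM and a ratio of -0.16 (-0.20 to -0.12). The leukocyte miRNAs thus had no common direction.

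The red blood cell miRNA miR-486 had 49.5 RPM in CE and 38.2 RPM in CO, while the miR-451 entry is at 0 in both libraries, as is that of miR-144. The 3 neural entries had summed levels of 1715 RPM in CE and 1956 RPM in CO, nearly all from the miR-7 entry, and the entry of the neuronal miR-124 had 37 reads in CE and 36 in CO. The miR-217 entry, a miRNA of pancreatic acinar cells, had 67 reads in CE and 26 in CO, a log2 ratio of -1.27 (-1.98 to -0.60). No entry could be linked to miR-126, the endothelial miRNA searched for. miR-122, a miRNA of hepatocytes, had 281 reads in CE and 372 in CO, each in another length.

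The Hox cluster miRNAs, which lie among the Hox genes that pattern the body axis, were lower in colon in 3 of 4 entries. Of all 278 entries, 122 were lower in colon. The miR-196a entry had 1171 reads (88.0 RPM) in CE and 344 reads (27.6 RPM) in CO, a log2 ratio of -1.67 (-1.85 to -1.497), and it was at 0 in DU. An unnamed entry, novel_mir_153, has the same seed and nearly the same sequence, and it was higher in colon. It had 4983 reads (375 RPM) in CE and 5692 reads (457 RPM) in CO, a log2 ratio of 0.29 (0.23 to 0.34), and 525 reads in DU. Reads could have been split between both entries, so the miR-196a values are uncertain to that extent. oar-miR-10a had 34179 RPM in CE and 23312 RPM in CO, a log2 ratio of -0.55 (-0.56 to -0.55), and oar-miR-10b had 33399 and 28211 RPM, a log2 ratio of -0.24 (-0.25 to -0.24). The miR-615 entry had 43.7 and 46.3 RPM, a log2 ratio of 0.08 (-0.09 to 0.25). The miR-196a entry taken alone was thus 3.19-fold higher in cecum and miR-10a and miR-10b less than 1.5-fold.

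Outside these lists, the entries with the largest ratios in cecum were mostly predicted ones. novel_mir_377, which has no name, had 1046 reads (78.6 RPM) in CE and 206 reads (16.5 RPM) in CO, a log2 ratio of -2.25 (-2.47 to -2.03), and it had 3700 reads in DU. The miR-184 entry (novel_mir_223) had 349 reads in CE and 74 in CO, a log2 ratio of -2.14 (-2.52 to -1.78), and the unnamed novel_mir_173 had 845 and 221 reads, a log2 ratio of -1.84 (-2.06 to -1.62). These 3 had intervals wholly beyond 2-fold, which among the 7 entries higher in cecum held also for miR-196a. The miR-34c entry (novel_mir_201), a target of p53, had 144 and 64 reads, and the miR-365 entry (novel_mir_160) had 235 and 105 reads, both with a log2 ratio of -1.07. The largest cecum ratio among known miRNAs was that of oar-miR-380-3p, at -0.90 (-1.63 to -0.21), with 54 and 27 reads.

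In colon, the unnamed novel_mir_5 led the entries outside the lists, with 137 reads (10.3 RPM) in CE and 564 reads (45.3 RPM) in CO, a log2 ratio of 2.14 (1.87 to 2.42). It was the only such entry higher in colon with an interval wholly beyond 2-fold. novel_mir_262 had 14 and 44 reads, novel_mir_49 had 10 and 31 reads, novel_mir_552 had 10 and 25 reads, and the miR-153 entry (novel_mir_69) had 20 and 60 reads. Their log2 ratios ran from 1.42 to 1.75 with wide intervals, such as 0.31 to 2.64 for novel_mir_552. Of the 22 entries at least 2-fold higher in colon, 16 had under 100 reads in CE and 12 had no name. Neither share was counted over all 278 entries, so these counts do not set the 22 apart.

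Of the miRNAs among the 5 with the most reads in either library, some were close to equal and others were not. oar-miR-21, a widely expressed miRNA, had 129620 RPM in CE and 115453 RPM in CO, a log2 ratio of -0.17 (-0.17 to -0.16). oar-miR-26a had 37401 and 40764 RPM, a log2 ratio of 0.12 (0.12 to 0.13), and oar-let-7a had 33778 and 41212 RPM, a log2 ratio of 0.29 (0.28 to 0.29). oar-miR-148a was further from equal, with 26898 RPM in CE and 45352 RPM in CO, a log2 ratio of 0.75 (0.75 to 0.76), and oar-miR-10a lay at -0.55. The miR-192 entry, also among the 5 in CE, is at 0 in CO.

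Of the 544 entries left out, 274 were at 0 in both libraries, 143 had reads but under 10 in both, and 127 had 10 or more in 1 library only. In the last group, 54 had reads in CO and 0 in CE, 47 had reads in CE and 0 in CO, and 26 had fewer than 10 reads in the other library. For 25 of the 54 and 24 of the 47, another entry that contained the sequence or lay within it had reads in the other library, as for miR-429. The smallest count above 0 was 1 read for known and 5 for predicted miRNAs, so a 0 of a predicted entry can hide a few reads, or many under an entry of another length. Entries near 0 in 1 segment were thus left out, and the counts of calls cover only miRNAs read in both. At the limit, 11 of the entries kept had exactly 10 reads in the lower library, and 5 entries were left out with 9.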

How the data were processed

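Small RNA of the duodenum (DU), cecum (CE) and colon (CO) of 3 ewes was pooled by segment and sequenced as 1 library per segment. The authors removed low-quality, adapter, polyA and short reads, mapped the clean reads to Oar_v4.0, matched them to miRBase precursors and mature miRNAs with BLAST, and predicted further miRNAs with miReap. The methods of the study name SOAP as the aligner, whereas Bowtie stands in the submitters' processing notes. The deposited values are raw read counts per entry, with mature sequences and no normalization. Predicted entries carry other numbers than the predicted miRNAs of the paper.

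Counts were divided by the summed counts of oar- entries, per 1000000. Entries with 10 or more reads in both libraries were kept, and those at least 2-fold apart were called. Intervals are exact 95% binomial intervals, and they and the Wilson intervals of shares cover counting error only. With 1 library per segment no test across animals could be fitted, and p-values are not given. For known entries, counting error lets a 0 stand for up to 3 reads, or 0.225 RPM in CE and 0.241 RPM in CO. No such limit holds for predicted entries, whose smallest count above 0 was 5 and whose reads can stand under an entry of another length. The calculation was tested on simulated data.

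The members and the lists of epithelial, muscle, mesenchymal, proliferation, immune, erythroid, endothelial, neural, liver and pancreas, and Hox cluster miRNAs were chosen with earlier results of these data known. Entries reported by name were the known and listed entries kept, the 8 with the largest ratio in each direction, the 5 most abundant entries of each library, nested pairs within a list, and the 3 with the most reads in each direction among those at 0 in 1 library. A link by an overlap of 16 or more bases, used for miR-214 and miR-142, was added after seeing the data. The entry novel_mir_153 was also added then, because its sequence is close to that of the miR-196a entry.

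Alternatives were other scales (all entries, clean reads, mapped reads, known entries without oar-miR-143, TMM of edgeR 4.0.16, size factors of DESeq2 1.42.0), other filters, nested entries added up, known entries only, a fold of 1.5, and the exact Audic-Claverie test with Bonferroni correction. Scripts ran in Python 3.11.15 and R 4.3.3. No genome was used here, so no coordinates are given, and RefSeq names and neighbours of 145 of the 146 known entries come from ARS-UI_Ramb_v3.0.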

Additional observations from a re-analysis of the deposited data

Results flagged for a closer look

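A total of 6 entries had many reads in 1 library and a 0 in the other, and so lay outside the comparison. In CE these were the miR-192 entry (novel_mir_245) with 490567 reads, a miR-429 entry (novel_mir_357) with 3216 reads, and a miR-425 entry (novel_mir_232) with 505 reads, each at 0 in CO. In CO they were an entry related to miR-222 (novel_mir_287) with 6655 reads, the other miR-429 entry (novel_mir_178) with 4268 reads, and an entry related to miR-744 (novel_mir_152) with 1808 reads, each at 0 in CE. For miR-429 and miR-425 the other library had reads of an entry of another length, 575 reads of novel_mir_370 in CO in the case of miR-425. For the entries of miR-192, miR-222 and miR-744 no such entry had reads in the other library, and the cause of the 0 was not tested.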

How the results depend on the processing

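No paired analysis was possible because each segment has 1 library. No called ratio changed direction under another scale. The muscle median turned to 0.03 with the sum of all entries and the proliferation median to -0.01 with DESeq2. Of 53 named entries, 5 changed sign under another scale, each with a main log2 ratio of at most 0.08 in size. The median of all entries, 0.10, ran from 0 (DESeq2) to 0.13 (sum of all entries).

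The epithelial median was 1.05 per read of all entries, 0.99 per clean read, 0.96 per mapped read and 0.97 without oar-miR-143. It was 0.99 with TMM, 0.92 with DESeq2, 0.97 with 10 reads or with 1 read in either library, and 0.76 in known entries. With nested entries added up it was 0.69, over a set that then took in miR-429 and miR-31. The epithelial entries 2-fold apart numbered 9 with either looser filter (6 higher in colon and 3, miR-192, 22-nt miR-429 and a miR-31 entry, higher in cecum), 2 with nested entries added up, and 1 in known entries. The muscle median was -0.10 with DESeq2 and -0.43 in known entries, and 3 muscle entries were 1.5-fold apart. The proliferation entries 2-fold apart numbered 1 per mapped read, without oar-miR-143, with DESeq2, and in known entries.

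Entries higher in colon numbered 9 with 50 reads in both, 83 with 10 reads in either, 143 with 1 read in either, 2 in known entries, 45 at 1.5-fold, and 11 with the Audic-Claverie test. Entries higher in cecum numbered 57 with 10 reads in either, 105 with 1 read in either, 0 in known entries, 21 at 1.5-fold, and 8 with DESeq2, against 17 higher in colon there. oar-miR-200b lost its call with nested entries added up and with DESeq2, the 23-nt miR-194 entry with nested entries added up, and miR-20b per mapped read, without oar-miR-143 and with DESeq2.

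Depth limits the entries with few reads, and 1 pooled library per segment leaves the spread between animals unmeasured.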

Other observations

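The imprinted miRNA block between DLK1 and DIO3, placed here by RefSeq order from MIR493 to MIR323C, held 96 known entries, of which 51 had 10 or more reads in both libraries. Of these, 29 were higher in cecum and 22 higher in colon, the median log2 ratio was -0.07, and the range was -0.90 to 0.65. The summed level was 4144 RPM in CE and 3681 RPM in CO. The other 50 known entries kept had a median of 0.05, with 24 higher in cecum and 26 higher in colon.

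Some miRNAs with the same seed went apart. oar-miR-148a and oar-miR-152 share the seed CAGTGCA and differ at 3 of 21 bases. oar-miR-148a had a log2 ratio of 0.75 and oar-miR-152, with 1023 RPM in CE and 678 RPM in CO, one of -0.59 (-0.63 to -0.55), while the third entry of this seed, that of miR-148b, had 0.54. The let-7 seed GAGGTAG was held by 11 entries, 7 higher in colon and 4 higher in cecum, from -0.18 to 0.46.

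oar-miR-23a had 6397 reads (481 RPM) in CE and 3386 reads (272 RPM) in CO, a log2 ratio of -0.82 (-0.88 to -0.76). Its neighbour in RefSeq, oar-miR-27a, had 2752 and 2173 RPM, a log2 ratio of -0.34 (-0.36 to -0.32). oar-miR-23a and oar-miR-23b have related sequences, so their reads could have been split. oar-miR-221, with 349 and 230 RPM, had a log2 ratio of -0.60 (-0.67 to -0.54). The miR-100 entry (novel_mir_211), with 7219 and 4506 RPM, had one of -0.68.

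After the values were seen, a group of 59 of 822 entries (7.18%) was found to contain the letters GAACTTTTTG, read in the mature sequence only. Of these, 14 had 10 or more reads in both libraries, 12 of them higher in colon and 2 higher in cecum. Over all 278 entries, 156 were higher in colon and 122 higher in cecum. The 14 had a median log2 ratio of 0.44 and no more than 845 reads in either library. Related sequences of this kind may share reads, so these 14 values are uncertain.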
